A study of Rattus norvegicus with 15 samples.

Results

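The renin-angiotensin, endothelin and nitric oxide systems set the tone of blood vessels, and in the cirrhotic liver they are known for their part in the raised vascular resistance of portal hypertension. They were followed here through 8 genes in rat liver RNA, which were taken as the rows of the count table whose gene symbol was Agt, Ace, Agtr1a, Mas1, Edn1, Ednra, Ednrb or Nos3. All 8 were found, with 1 row each, among 32623 genes. Of these 8 genes, 7 passed the filter on low counts, which kept 14417 genes, 13628 of them protein coding. Mas1 did not pass.

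In the renin-angiotensin system, angiotensinogen (Agt), secreted by hepatocytes, is cut to angiotensin I, and angiotensin converting enzyme (Ace) turns this into angiotensin II. Angiotensin II acts on the type 1 receptor (Agtr1a), which contracts vascular and stellate cells and drives aldosterone release in the adrenal gland, while the receptor Mas (Mas1) answers to angiotensin-(1-7), a shorter peptide of the same family. Endothelin-1 (Edn1) constricts vessels through the receptor Ednra, whereas Ednrb on endothelium clears endothelin and leads to release of nitric oxide, the vasodilator made there by endothelial nitric oxide synthase (Nos3). Eplerenone blocks the mineralocorticoid receptor, the receptor of aldosterone.

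All rats were male Wistar rats with an initial weight of 75 to 100 g, and control rats were untreated. The cirrhosis group inhaled CCl4, a hepatocyte toxin, for 12 weeks and drank phenobarbital (0.35 g/L), and by then had cirrhosis with ascites. The cirrhosis & eplerenone group received the same CCl4 and phenobarbital and, from week 8 to week 12, eplerenone at 100 mg/kg by mouth in hazelnut spread. Livers of CCl4-treated rats were taken 7 to 10 days after the last CCl4. The groups differ from control in CCl4 and phenobarbital together, and no group received eplerenone without CCl4 or the spread without eplerenone. The rats sequenced were, by the study's account, a subgroup picked for successful cirrhosis induction or eplerenone treatment, so the groups are not a random sample of the treated animals.

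Poly(A) RNA of 4 control, 5 cirrhosis and 5 cirrhosis & eplerenone livers was compared. A further control, replicate 1, was not analysed here. Counted reads ranged from 16157491 to 21574767 per sample, and 3 counts, taken as the floor, stood for 0.121 to 0.191 FPM (counts per 1000000 reads of the TMM-scaled library size). The floor covers counting error only. Markers of hepatocytes summed to between 106000 and 203000 FPM in every sample, as liver should give. On the first principal component, cirrhosis replicate 5 lay at 13 and the other cirrhosis samples at -47.7 to -38.0, and cirrhosis & eplerenone replicate 3 lay at -42.6 and its group at -18.5 to 26.8. These 2 samples are plotted as open diamonds, and results that rest on them are given without them too. FPM is not corrected for gene length, so values are compared between samples and not between genes. In whole liver, fewer cells of a type and less RNA per cell cannot be told apart.

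**Figure D1:**
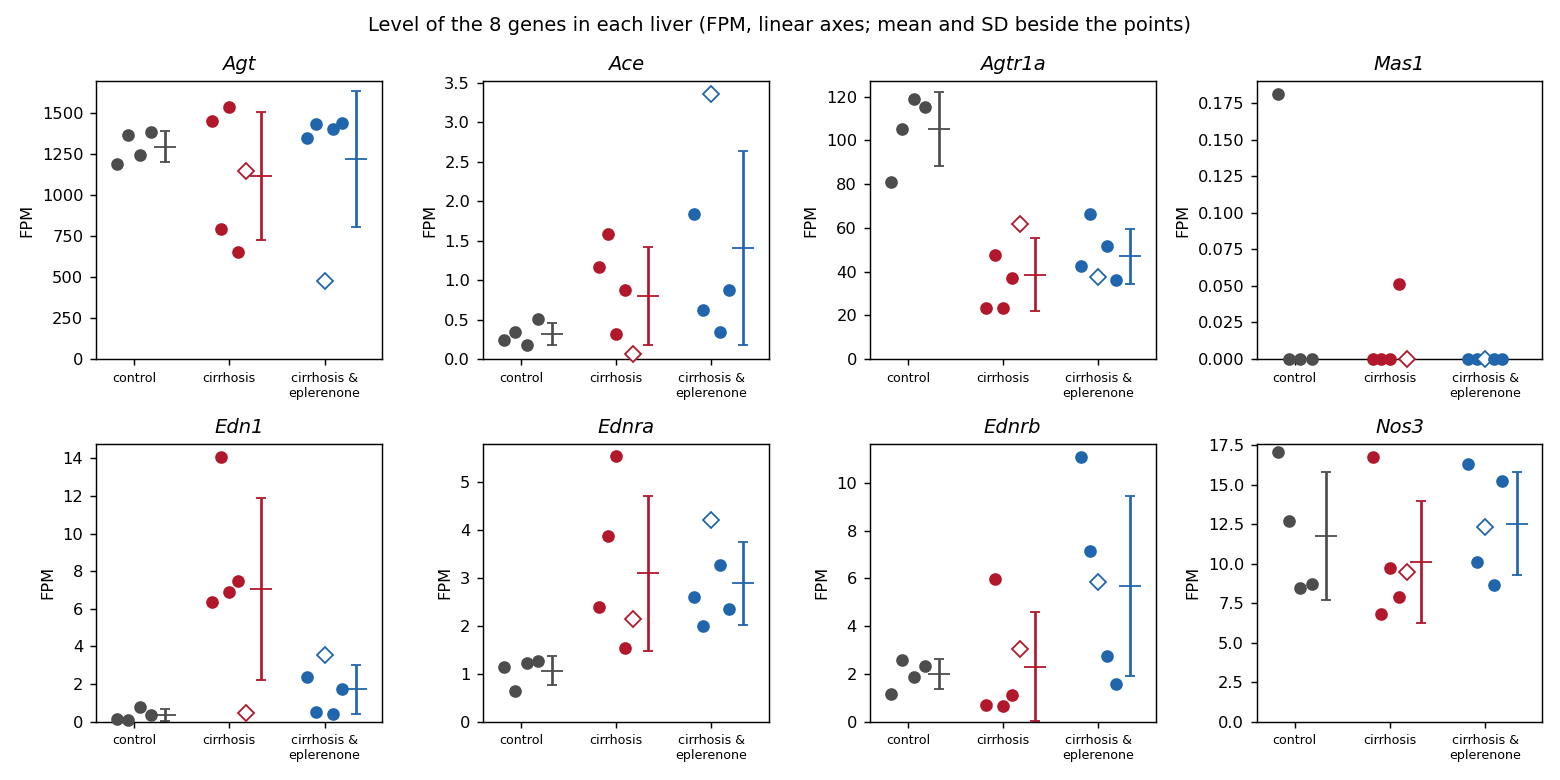
Level in each liver of the 8 genes, in FPM on linear axes that start at 0 and differ between panels. Circles are rats, open diamonds are cirrhosis replicate 5 and cirrhosis & eplerenone replicate 3, and horizontal dashes with bars are the mean and SD of 4, 5 and 5 livers (not drawn for Mas1, which had counts in only 2 livers). Agtr1a is lower and Ednra higher in every CCl4-treated liver than in every control, while Edn1 is above 6 FPM in 4 cirrhosis livers and below 4 FPM in all others.

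Protein coding genes with an FDR below 0.05 by edgeR and by DESeq2 are named DEG here, for differentially expressed gene. The log2FC and standard errors (SE) are those of edgeR. Between cirrhosis and control, 3 of the 7 genes tested were DEG, where 20.6% of all protein coding genes tested were. Edn1 and Ednra were higher, as 13.8% of genes were, and Agtr1a was lower, as 6.72% were. Between cirrhosis & eplerenone and control, Agtr1a was the only DEG of the 7, against 5.33% of all genes. Between cirrhosis & eplerenone and cirrhosis, none of the 7 was DEG in either tool, and 0.0147% of all genes were. In that comparison Edn1 alone had an unadjusted p under 0.05 by edgeR, which 14.5% of all genes had.

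**Figure D2:**
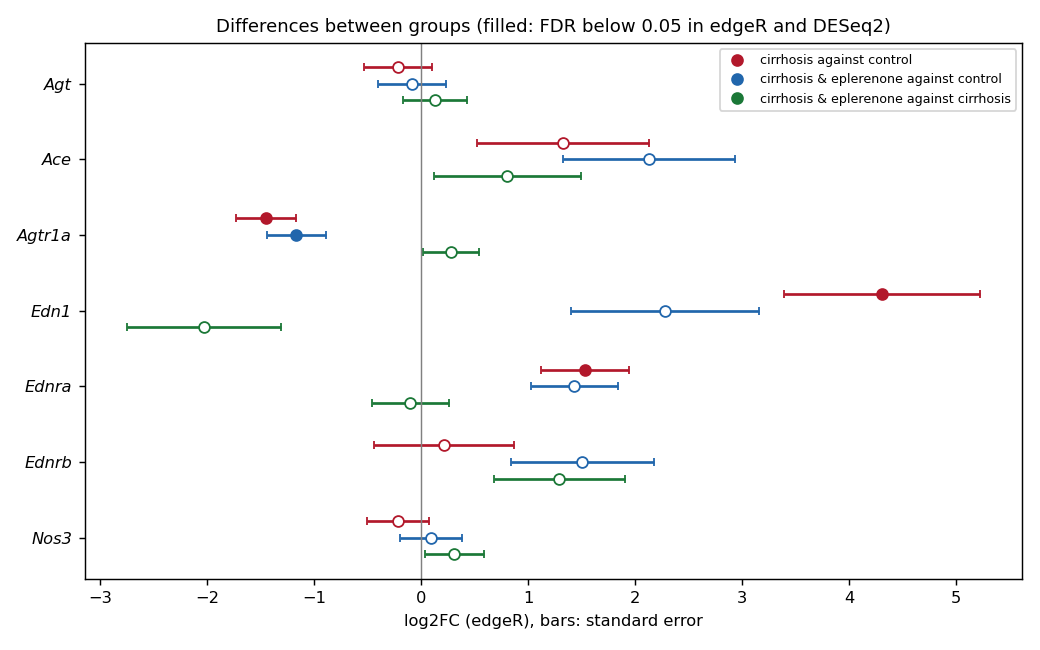
Difference between groups for the 7 genes tested, as log2FC of edgeR on the horizontal axis with the standard error as a bar; colours are the 3 comparisons and filled points are DEG. Filled points are Edn1 (4.31), Ednra (1.53) and Agtr1a (-1.45) in cirrhosis against control, and Agtr1a (-1.16) in cirrhosis & eplerenone against control.

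Agt (ENSRNOG00000018445, chromosome 19) showed no difference that passed a test. In control livers it had 1188, 1366, 1245 and 1388 FPM. In cirrhosis the values were 1450, 795, 1538, 652 and 1146 FPM, and in cirrhosis & eplerenone 1349, 1436, 478, 1403 and 1440 FPM. The control range lay inside the cirrhosis range, and cirrhosis & eplerenone replicate 3 was far below the rest of its group. The log2FC was -0.22 (SE 0.319) in cirrhosis, with an adjusted p = 0.633 from edgeR's quasi-likelihood F test (Benjamini-Hochberg). It was -0.09 (SE 0.319) in cirrhosis & eplerenone against control and 0.13 (SE 0.301) against cirrhosis. Scaled to total counts, the first of these was 0.04, so its sign depends on the scaling. Cog2, which overlaps Agt in the RefSeq annotation of GRCr8, had 225 to 516 counts per sample, and Capn9, which also overlaps it, had 0 to 4. Agt had 11800 to 28510 counts per sample.

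Ace (ENSRNOG00000062101, chromosome 10) was near the floor in several livers. It had 0.241, 0.347, 0.183 and 0.509 FPM in control, from 3 to 8 counts. The cirrhosis livers had 1.16, 1.59, 0.324, 0.872 and 0.0595 FPM, the last from 1 count, and the cirrhosis & eplerenone livers had 1.84, 0.626, 3.36, 0.339 and 0.874 FPM. The groups overlapped, with the 2 highest values in cirrhosis & eplerenone. The log2FC against control was 1.33 (SE 0.802) in cirrhosis and 2.13 (SE 0.806) in cirrhosis & eplerenone. These had adjusted p = 0.235 and 0.142 by edgeR's quasi-likelihood F test (Benjamini-Hochberg). With 1 sample left out in turn, the value in cirrhosis & eplerenone was as low as 1.51, without cirrhosis & eplerenone replicate 3, which had the highest Ace level, and the value in cirrhosis was as low as 0.92, without cirrhosis replicate 2. Against cirrhosis, the cirrhosis & eplerenone group differed by 0.80 (SE 0.686), and by -0.12 when both samples that stand apart were left out.

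Agtr1a (ENSRNOG00000018346, chromosome 17) was lower in every CCl4-treated liver than in every control. Control livers had 81.2, 105, 119 and 116 FPM. Cirrhosis livers had 23.2, 47.5, 23.3, 37.0 and 62.0 FPM, and cirrhosis & eplerenone livers had 42.5, 66.4, 37.7, 51.9 and 36.2 FPM. The 2 CCl4-treated groups overlapped over most of their range, and the highest value in cirrhosis was that of replicate 5. The decrease in cirrhosis was 2.73-fold (log2FC -1.45, SE 0.279, adjusted p = 0.00371 by edgeR's quasi-likelihood F test (Benjamini-Hochberg)). In cirrhosis & eplerenone it was 2.24-fold (log2FC -1.16, SE 0.278, adjusted p = 0.0250 by the same edgeR test). The call in cirrhosis was made in 14 of 14 fits with 1 sample left out, with log2FC between -1.68 and -1.28. The call in cirrhosis & eplerenone was made in 8 of 14. It was lost without control replicate 3, 4 or 5 and without cirrhosis & eplerenone replicate 1, 3 or 5, with adjusted p between 0.0559 and 0.0832 by edgeR, and also when libraries were scaled to total counts (log2FC -0.88, adjusted p = 0.0562 by edgeR). The groups with and without eplerenone differed by 0.28 (SE 0.264), which passed no test. Agtr1b, the second rodent type 1 receptor gene, had 0 counts in all samples, so no read was counted at that near copy.

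Mas1 (ENSRNOG00000014971, chromosome 1) had 3 counts in control replicate 2, 1 count in cirrhosis replicate 4 and 0 counts in the other 12 samples. No comparison was made at this depth, at which a count of 0 allows up to 0.191 FPM.

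Edn1 (ENSRNOG00000014361, chromosome 17) was the member with the largest difference. Control livers had 0.121, 0.116, 0.794 and 0.382 FPM, from 2 to 13 counts. Control replicates 2 and 3, with 2 counts each, were below the floor of 3 counts, so the size of a fold against control is uncertain. Cirrhosis replicates 1 to 4 had 6.38, 14.1, 6.90 and 7.49 FPM, and replicate 5 had 0.476 FPM, a level within the control range. The cirrhosis & eplerenone livers had 2.40, 0.501, 3.52, 0.395 and 1.75 FPM, and their highest value was that of replicate 3. All 5 of these lay below cirrhosis replicates 1 to 4, and 2 of them lay within the control range. Edn1 was 19.8-fold higher in cirrhosis than in control (log2FC 4.31, SE 0.914, adjusted p = 0.00625 by edgeR's quasi-likelihood F test (Benjamini-Hochberg)). The call was made in 14 of 14 fits with 1 sample left out, with log2FC between 3.90 and 5.07. In cirrhosis & eplerenone the log2FC against control was 2.28 (SE 0.875), with an adjusted p = 0.147 by edgeR's test and 0.0395 by DESeq2, so Edn1 was not DEG there.

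Against cirrhosis, Edn1 differed in cirrhosis & eplerenone by -2.03 on the log2 scale (SE 0.717). Its unadjusted p from edgeR, a model fitted across all genes, was 0.0124, and its adjusted p = 0.312 by edgeR's quasi-likelihood F test (Benjamini-Hochberg) (0.125 by DESeq2). Without cirrhosis replicate 5 and cirrhosis & eplerenone replicate 3, the difference was -2.79, with an adjusted p = 0.0214 by the same edgeR test, and Edn1 was DEG. Without the first alone it was -2.33 (adjusted p = 0.0765 by edgeR), and without the second alone -2.50 (0.157). These are the cirrhosis sample with the lowest and the cirrhosis & eplerenone sample with the highest Edn1, so leaving them out widens the gap by construction. The animal labels begin with 15 or 20 in CCl4-treated rats, a number whose meaning is not stated. The difference of means was -2.81 among labels with 15 (3 cirrhosis and 2 cirrhosis & eplerenone livers) and -0.49 among labels with 20 (2 and 3 livers). Labels of controls begin with 13 or 16, so this number and CCl4 cannot be told apart in comparisons with control.

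**Figure D3:**
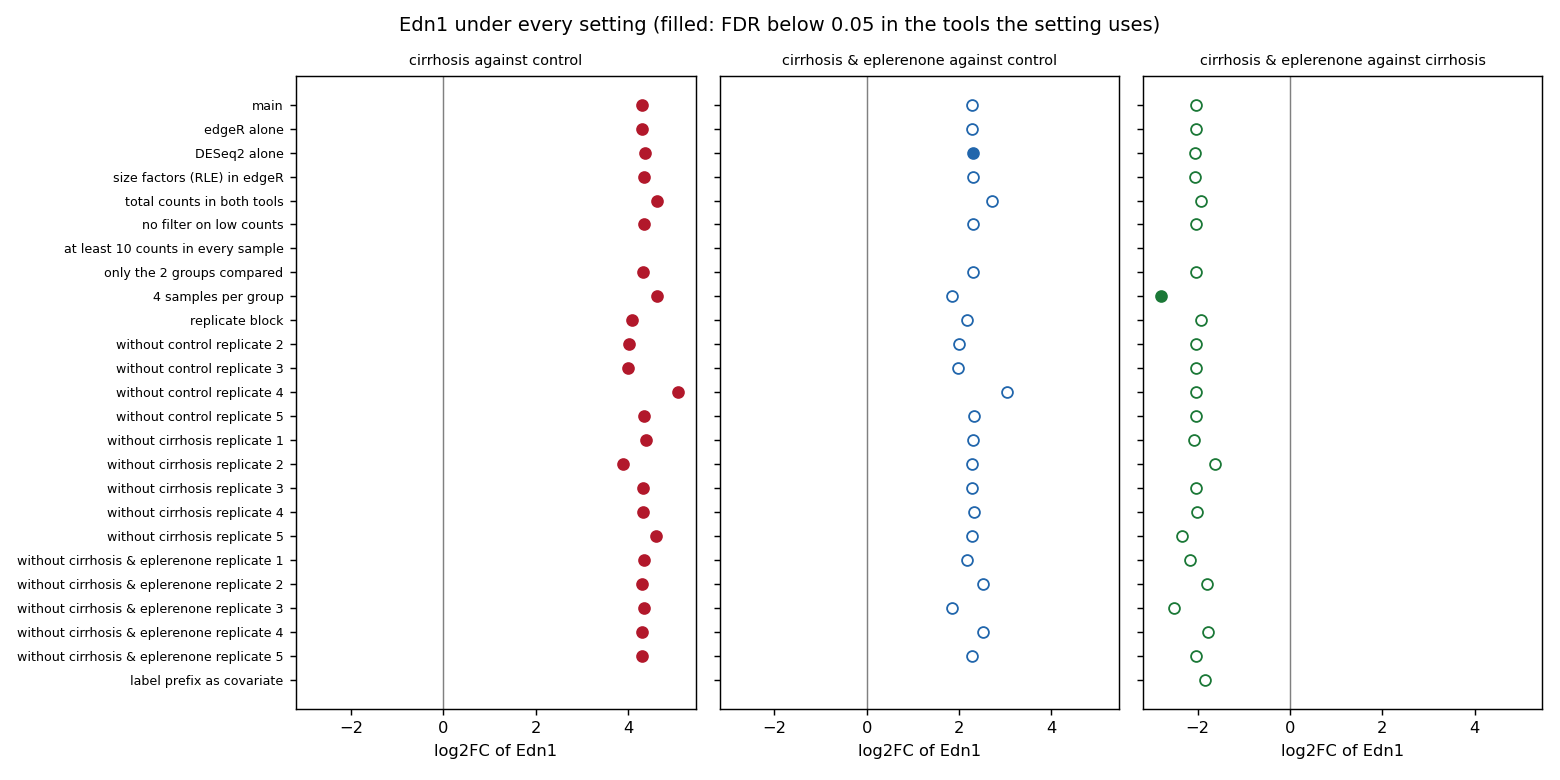
Difference of Edn1 as log2FC (horizontal axis, shared by the 3 panels) for each comparison under every way of processing listed at the left, with filled points where Edn1 was called. All points of cirrhosis against control are filled (3.90 to 5.07), 1 is filled in cirrhosis & eplerenone against control (DESeq2 alone) and 1 in cirrhosis & eplerenone against cirrhosis (4 samples per group, -2.79). Where at least 10 counts were asked of every sample, Edn1 was not tested, and the label prefix was used among CCl4-treated rats alone.

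The stretch upstream of Edn1 is shown because Edn1 changed most among the 8 genes. It is taken from RefSeq (GRCr8, a later build than the rn6 used for counting), chr17:22666788-22666937 on the minus strand, the first 150 of the 250 bases before the annotated start, written 5′ to 3′. Capitals mark short motifs known as sites of transcription factors: a GATA site (AGATAA, here on the other strand as TTATCT), the core of a hypoxia response element (ACGTG, here as CACGT), a variant AP-1 site (TGACTAA) and a TATA box (TATAAA).
Edn1: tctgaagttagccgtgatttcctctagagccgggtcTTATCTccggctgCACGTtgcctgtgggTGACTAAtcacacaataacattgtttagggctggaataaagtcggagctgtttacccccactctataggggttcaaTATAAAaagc

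Both strands were searched in the 250 bases before the annotated start of 33469 genes. AGATAA was found in 10.3% of these windows, ACGTG in 16.6%, TGACTAA in 1.99% and TATAAA in 12.9%. Of the 7 members with a window (Agt was not matched), only Edn1 held the GATA site, the hypoxia core or TGACTAA, and Ace, Agtr1a and Edn1 held TATAAA. The steroid receptor half-site AGAACA (17.5% of windows) and the consensus AP-1 site TGACTCA (4.05%) were found in none of the 7, and the GC box GGGCGG (30.5%) in Ace, Agtr1a and Nos3. The motifs in Edn1 do not overlap one another. They were chosen with the change of Edn1 known, and a match of letters is a description, not a bound site.

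Ednra (ENSRNOG00000012721, chromosome 19) was higher in every CCl4-treated liver than in every control. It had 1.15, 0.636, 1.22 and 1.27 FPM in control, from 11 to 20 counts. It had 2.39, 3.88, 5.56, 1.54 and 2.14 FPM in cirrhosis and 2.61, 2.00, 4.21, 3.27 and 2.35 FPM in cirrhosis & eplerenone. The cirrhosis & eplerenone range lay inside the cirrhosis range. Ednra rose 2.90-fold in cirrhosis (log2FC 1.53, SE 0.409, adjusted p = 0.0189 by edgeR's quasi-likelihood F test (Benjamini-Hochberg)). The call was lost without control replicate 3 (log2FC 1.35, adjusted p = 0.0625 by edgeR) or cirrhosis replicate 3 (1.22, 0.0506), and the log2FC was at most 1.73 over the samples left out in turn. In cirrhosis & eplerenone the log2FC was 1.43 (SE 0.408), and the adjusted p = 0.0541 by edgeR just missed the threshold that DESeq2 passed (0.0108). Between the CCl4-treated groups it was -0.10 (SE 0.361).

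Ednrb (ENSRNOG00000010997, chromosome 15) had 1.15, 2.602, 1.89 and 2.35 FPM in control. In cirrhosis it had 0.721, 5.998, 0.647, 1.13 and 3.04 FPM, and in cirrhosis & eplerenone 11.1, 7.13, 5.87, 2.77 and 1.58 FPM. The cirrhosis values lay on both sides of the control range, and the 2 highest cirrhosis & eplerenone values were above every liver of the other groups. The log2FC was 0.22 (SE 0.656) in cirrhosis and 1.51 (SE 0.669) in cirrhosis & eplerenone, with adjusted p = 0.827 and 0.213 by edgeR's quasi-likelihood F test (Benjamini-Hochberg). Between the CCl4-treated groups it was 1.29 (SE 0.611), with an adjusted p = 0.349 by the same edgeR test. It ranged from 0.90 without cirrhosis & eplerenone replicate 1 to 2.04 without cirrhosis replicate 2, which had the highest level of its group. Within the labels with 15 and with 20 this difference was 2.53 and 0.64. The sign in cirrhosis turned to -0.53 without cirrhosis replicate 2.

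The ratio of Ednra to Ednrb FPM in each liver puts both endothelin receptors together, as a description. It was 1.00, 0.244, 0.645 and 0.541 in control, 3.31, 0.646, 8.58, 1.36 and 0.706 in cirrhosis, and 0.235, 0.281, 0.717, 1.18 and 1.48 in cirrhosis & eplerenone. It was above 1.00 in 3 of 5 cirrhosis and 2 of 5 cirrhosis & eplerenone livers, and the groups overlapped.

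Nos3 (ENSRNOG00000009348, chromosome 4) overlapped between all 3 groups. It had 17.1, 12.7, 8.49 and 8.71 FPM in control. Cirrhosis livers had 16.8, 6.81, 9.71, 7.90 and 9.46 FPM, and cirrhosis & eplerenone livers had 16.3, 10.1, 12.3, 8.64 and 15.2 FPM. Each group held values from below 9 to above 16 FPM. The log2FC was -0.22 (SE 0.292) in cirrhosis, 0.09 (SE 0.292) in cirrhosis & eplerenone and 0.31 (SE 0.275) between the CCl4-treated groups, with adjusted p = 0.602, 0.904 and 0.571 by edgeR's quasi-likelihood F test (Benjamini-Hochberg). The first of these was 0.05 when scaled to total counts. Atg9b, which overlaps Nos3 in the RefSeq annotation, had 0 to 3 counts per sample.

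The other genes of the 3 systems were read from lists of 52 genes, of which 51 were in the table (Prkg1 was not analysed here) and 40 were tested, the 7 members included. In cirrhosis against control, 14 of the 40 were DEG, 10 higher and 4 lower, beside 20.6% of all genes. The median log2FC of the 40 was 0.03, and that of all protein coding genes was -0.01. In cirrhosis & eplerenone against control, 7 were DEG, 5 higher and 2 lower, beside 5.33% of all genes, with a median of 0.13 beside 0.01 for all genes. Between the CCl4-treated groups none of the 40 was DEG in edgeR or DESeq2, and 7 had an unadjusted p under 0.05 by edgeR, beside 14.5% of all genes.

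**Figure D4:**
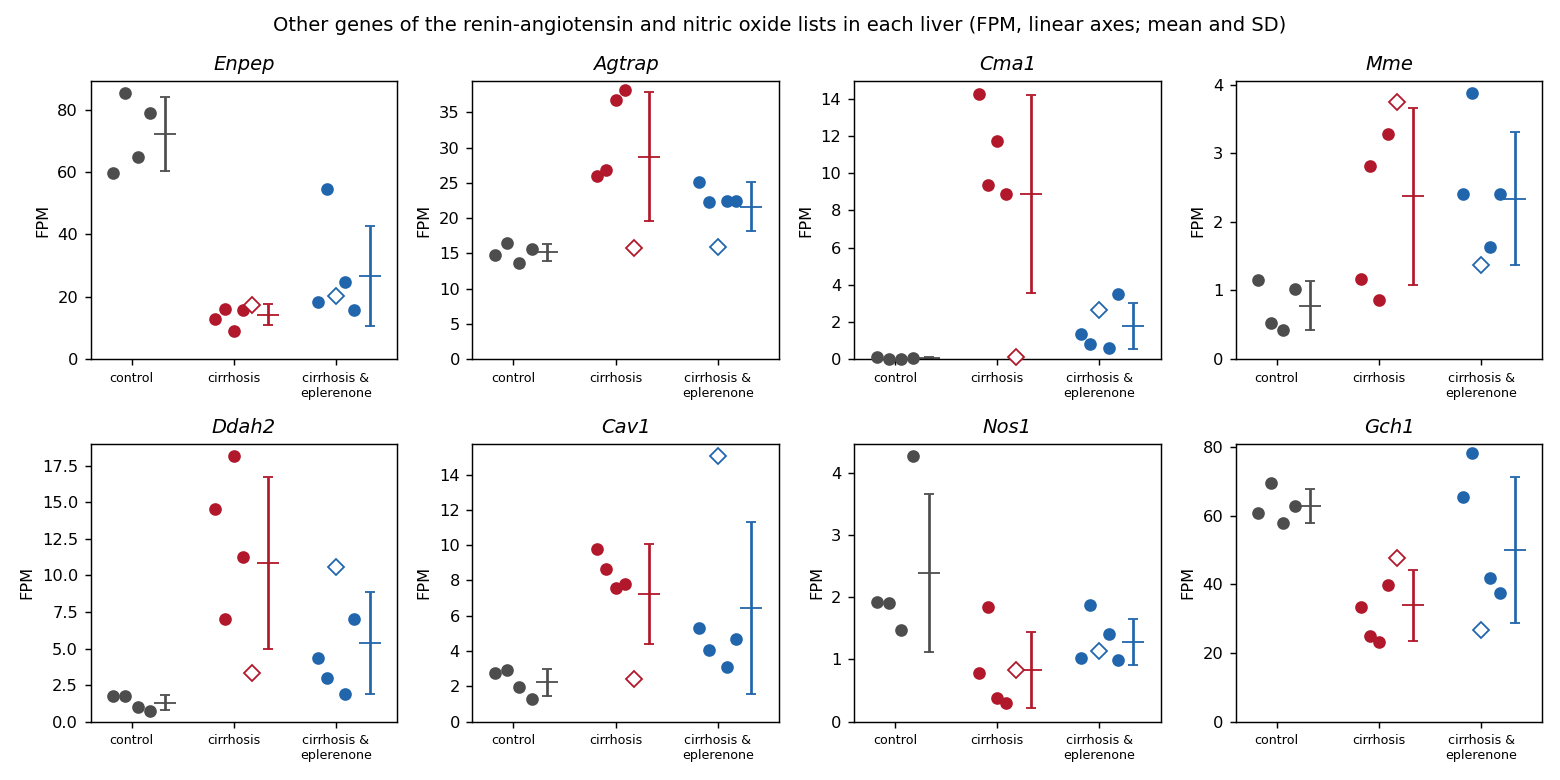
Level in each liver of 8 further genes of the renin-angiotensin (Enpep, Agtrap, Cma1, Mme) and nitric oxide (Ddah2, Cav1, Nos1, Gch1) lists, in FPM on linear axes from 0, with the mean and SD of each group and with open diamonds for cirrhosis replicate 5 and cirrhosis & eplerenone replicate 3. Enpep is lower and Ddah2 higher in every CCl4-treated liver than in every control, and Cma1 and Cav1 of cirrhosis replicate 5 lie at the level of control.

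Of 14 tested renin-angiotensin genes, 7 were DEG in cirrhosis (among them Agtrap, Cma1, Mme and Thop1 higher, and Agtr1a and Enpep lower) and 4 in cirrhosis & eplerenone against control (among them Cma1 higher, and Agtr1a and Enpep lower). Of all genes, 20.6% and 5.33% were DEG in these comparisons. Enpep, the aminopeptidase that turns angiotensin II into angiotensin III, had 59.7 to 85.3 FPM in control, 9.01 to 17.3 in cirrhosis livers and 15.8 to 54.6 in cirrhosis & eplerenone. No CCl4-treated liver reached the control range. It fell by 2.35 on the log2 scale in cirrhosis (SE 0.320, adjusted p = 0.000784) and by 1.44 in cirrhosis & eplerenone (SE 0.313, adjusted p = 0.0160 by edgeR's quasi-likelihood F test (Benjamini-Hochberg)).

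Neprilysin (Mme), a peptidase that forms angiotensin-(1-7), rose by 1.60 in cirrhosis (SE 0.507, adjusted p = 0.0384 by edgeR's quasi-likelihood F test (Benjamini-Hochberg)). It had 0.427 to 1.15 FPM in control and 1.16, 2.82, 0.863, 3.28 and 3.75 FPM in cirrhosis, with replicate 3 within the control range. Agtrap, a protein that binds the type 1 receptor and promotes its internalisation, rose by 0.93 (SE 0.226, adjusted p = 0.0124 by the same edgeR test). It had 13.7 to 16.4 FPM in control and 26.0, 26.8, 36.8, 38.2 and 15.7 FPM in cirrhosis, with replicate 5 within the control range.

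Chymase (Cma1), a mast cell protease, had 2, 0, 0 and 1 counts in control livers. In cirrhosis it had 14.3, 9.38, 11.8 and 8.87 FPM in replicates 1 to 4 and 0.119 FPM (2 counts) in replicate 5. In cirrhosis & eplerenone it had 1.33, 0.814, 2.63, 0.621 and 3.50 FPM. It was DEG in both CCl4-treated groups against control (adjusted p = 0.00160 and 0.0235 by edgeR's quasi-likelihood F test (Benjamini-Hochberg)), and no fold is given against 3 counts in all. Of 4 mast cell markers, 3 (Cpa3, Ms4a2 and Tpsab1, the last at 0 in all controls) were DEG and higher in cirrhosis. In cirrhosis & eplerenone against control, 2 of 4 were. Of all genes, 20.6% and 5.33% were DEG in these comparisons. Kit, the other marker, had means of 3.92, 4.05 and 3.72 FPM in control, cirrhosis and cirrhosis & eplerenone. The summed level of the 4 markers was 3.18 to 5.49 FPM in control, 4.34 to 23.0 in cirrhosis livers and 2.57 to 10.2 in cirrhosis & eplerenone. The part of mast cells in the Cma1 result was not tested. Multi-mapping reads were counted at every place, so Cma1 may share reads with related mast cell proteases.

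Agtr1b, Agtr2 and Mrgprd had 0 counts in all samples, and Lnpep and Ctsg were under the filter.

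In the endothelin list, Edn1 and Ednra were 2 DEG among 4 tested genes in cirrhosis, beside 20.6% of all genes. None of the 4 was DEG in cirrhosis & eplerenone against control, beside 5.33% of all genes. There, 3 had an unadjusted p under 0.05 by edgeR, as did 2849 of 13628 protein coding genes. DESeq2 alone called Edn1 and Ednra there, as it called 1476 of 13628 protein coding genes. The other tested genes were Ednrb and Ece1, the enzyme that releases endothelin-1 from its precursor. Edn2, Edn3 and Ece2 were under the filter.

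Of 22 tested nitric oxide and cGMP genes, 5 were DEG in cirrhosis (Cav1, Ddah2 and Klf4 higher, Gch1 and Nos1 lower) and 3 in cirrhosis & eplerenone against control (Ddah2, Klf4 and Slc7a1, all higher). Of all genes, 20.6% and 5.33% were DEG in these comparisons, and the median log2FC of the 22 was -0.03 and 0.06, so nothing is read from these counts about the list as a whole. Ddah2, which breaks down asymmetric dimethylarginine, an inhibitor of nitric oxide synthases, had 0.700 to 1.75 FPM in control, 3.33 to 18.1 in cirrhosis livers and 1.86 to 10.6 in cirrhosis & eplerenone. All CCl4-treated livers were above all controls. The log2FC was 3.04 (SE 0.572, adjusted p = 0.00325) in cirrhosis and 2.03 (SE 0.554, adjusted p = 0.0449 by edgeR's quasi-likelihood F test (Benjamini-Hochberg)) in cirrhosis & eplerenone, the latter with an adjusted p = 0.0517 without both samples that stand apart.

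Caveolin-1 (Cav1), which binds and holds Nos3 inactive, had 1.27 to 2.95 FPM in control and 7.55 to 9.76 FPM in cirrhosis replicates 1 to 4, with 2.44 in replicate 5. Its log2FC in cirrhosis was 1.69 (SE 0.491, adjusted p = 0.0273 by edgeR's quasi-likelihood F test (Benjamini-Hochberg)). Klf4, a transcription factor that promotes Nos3 expression in endothelium, rose by 1.54 (SE 0.417) in cirrhosis and by 1.67 (SE 0.418) in cirrhosis & eplerenone, the latter with an adjusted p = 0.0308 by edgeR and 0.0569 without the samples that stand apart. Gch1, the first enzyme in the synthesis of the Nos3 cofactor tetrahydrobiopterin, had 57.9 to 69.6 FPM in control, 23.2 to 47.8 in cirrhosis livers and 26.8 to 78.2 in cirrhosis & eplerenone.

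Gch1 fell by 0.89 in cirrhosis (SE 0.281, adjusted p = 0.0381 by edgeR's quasi-likelihood F test (Benjamini-Hochberg)), and by 0.60 with an adjusted p = 0.106 when scaled to total counts. The neuronal synthase Nos1 fell by 1.51 (SE 0.498), a call that was lost both with total counts (adjusted p = 0.0985 by edgeR) and without the 2 samples that stand apart (0.0507). Slc7a1, a transporter of arginine, the substrate of nitric oxide synthases, was DEG in cirrhosis & eplerenone against control (log2FC 2.73, SE 0.760, adjusted p = 0.0487 by edgeR). There it had 9.55 FPM in replicate 3 and 0.438 to 2.51 in the others, and the adjusted p was 0.131 without the samples that stand apart. The inducible synthase Nos2 and Arg2 were under the filter.

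Without cirrhosis replicate 5 and cirrhosis & eplerenone replicate 3, 5 genes of the 3 systems were DEG between cirrhosis & eplerenone and cirrhosis, where there were none with all samples. Edn1 (-2.79), Cma1 (-2.83), Ddah2 (-1.67) and Cav1 (-0.99) were lower with eplerenone and Gch1 (0.86) was higher. With all samples the log2FC was -2.03 for Edn1, -2.31 for Cma1, -1.01 for Ddah2, -0.16 for Cav1 and 0.56 for Gch1, with adjusted p = 0.312, 0.312, 0.347, 0.865 and 0.351 by edgeR's quasi-likelihood F test (Benjamini-Hochberg). As for Edn1, leaving the 2 samples out widens the gap by construction for the others too. Cirrhosis replicate 5 had the lowest Cav1 (2.44 FPM) and Ddah2 (3.33) and the highest Gch1 (47.8) of its group, and cirrhosis & eplerenone replicate 3 had the highest Cav1 (15.1) and Ddah2 (10.6) and the lowest Gch1 (26.8). For Cma1 the cirrhosis sample was likewise the lowest of its group (0.119 FPM). The cirrhosis & eplerenone sample (2.63 FPM) was below replicate 5 (3.50 FPM) but above the group mean of 1.78 FPM. In this fit 1235 protein coding genes were called, against 2 with all samples.

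Other vasoactive genes and effectors of contraction were read from 2 further lists. Of 21 tested vasoactive genes, 8 were DEG in cirrhosis, 7 higher and 1 lower, beside 20.6% of all genes (13.8% higher), and 2 in cirrhosis & eplerenone against control, beside 5.33%. Their median log2FC in cirrhosis was 1.00. The receptor activity modifying proteins Ramp1 and Ramp2, which give the calcitonin-like receptor its specificity for CGRP or adrenomedullin, rose by 1.55 (SE 0.480) and 1.73 (SE 0.480) in cirrhosis. Ramp1 had 4.90 to 8.67 FPM in control, 6.19 in cirrhosis replicate 5 and 14.6 to 36.0 in the other cirrhosis livers. Ramp2 had 1.46 to 2.49 FPM in control, 1.61 in cirrhosis replicate 5 and 5.10 to 10.3 in the other cirrhosis livers. Ramp3, the apelin receptor Aplnr and the bradykinin receptor Bdkrb2 had at most 1, 3 and 4 counts in a control liver and reached 6.21, 10.0 and 1.88 FPM in cirrhosis. Cirrhosis replicate 5 had 0.238 FPM of Ramp3 (4 counts), 0.0595 FPM of Aplnr (1 count, within the control range) and 0.952 FPM of Bdkrb2, each the lowest of its group. All 3 genes were DEG in cirrhosis with all samples and without the samples that stand apart, and no fold is given.

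Of 19 tested effectors of contraction, 6 were DEG in cirrhosis, all higher, where 13.8% of all genes were DEG and higher, and 1 in cirrhosis & eplerenone against control, beside 5.33%. Their median log2FC in cirrhosis was 0.21, beside -0.01 for all genes. Smooth muscle actin (Acta2) had 1.46 to 3.66 FPM in control, 14.6 to 30.0 FPM in cirrhosis replicates 1 to 4 and 2.26 in replicate 5. In cirrhosis & eplerenone it had 4.96, 1.31, 30.2, 6.66 and 10.9 FPM. The log2FC in cirrhosis was 2.84 (SE 0.782), beside 2.73 (SE 0.657) for transgelin (Tagln), 2.43 (SE 0.569) for beta tropomyosin (Tpm2), 2.55 (SE 0.822) for the G protein regulator Rgs4 and 1.17 (SE 0.372) for the myosin light chain Myl9. The kinases Rock1 and Rock2 and their activator Rhoa were not DEG in any of the 3 comparisons.

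Markers of other cell types moved with the groups. In cirrhosis against control, 13.8% of all protein coding genes tested were DEG and higher, and 6.72% DEG and lower. An unadjusted p under 0.05 by edgeR was found there for 5124 of 13628. Of 8 markers of stellate cells and myofibroblasts, known to carry Agtr1a, Ednra and Ednrb, 5 were DEG and higher in cirrhosis, and all 8 had an unadjusted p under 0.05 by edgeR. Their directions were mixed, with Lrat, which stores retinyl esters in quiescent stellate cells, at a log2FC of -1.09 and Reln at -1.002, neither of them DEG (adjusted p = 0.118 and 0.110 by edgeR). The sum of the 8 was 151 to 261 FPM in control, 268 to 485 in cirrhosis livers and 386 to 533 in cirrhosis & eplerenone. The collagen Col3a1 alone had means of 125, 216 and 293 FPM in these groups. Between cirrhosis & eplerenone and cirrhosis, 4 of the 8 were higher and 4 lower by sign. None of them was DEG, beside 0.0147% of all genes. Mean Col1a1 was 51.8 FPM in cirrhosis and 40.6 FPM in cirrhosis & eplerenone, and mean Lrat 7.93 and 24.4 FPM. Of 9 markers of endothelium, the cells known for Nos3 and Edn1, Vwf was DEG and higher and Kdr DEG and lower in cirrhosis. By sign alone, 4 of the 9 were higher and 5 lower. Their sum was 217 to 261 FPM in control, 149 to 345 in cirrhosis livers and 191 to 278 in cirrhosis & eplerenone. All 6 cholangiocyte markers were higher in cirrhosis, with sums of 14.4 to 23.6 FPM in control and 46.4 to 142 in cirrhosis. Of 8 hepatocyte markers 1 (Hnf4a) was DEG and lower. Among the rest, 4 of 6 lymphocyte, 3 of 3 neutrophil and 1 of 4 smooth muscle markers were DEG and higher. Of 5 macrophage markers, 1 (Cd163) was DEG and lower. By sign alone, all 6 lymphocyte and all 4 smooth muscle markers were higher, and 4 of 5 macrophage markers were lower. Which liver cells carried Agtr1a, Ednra and the other members was not measured in this whole-liver RNA. The part of cell composition in the changes of Edn1, Ednra and Agtr1a was not tested.

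For each tested member, the protein coding genes whose log2 FPM followed it most closely were ranked by Pearson's r over 14 samples, with r over the 10 CCl4-treated samples beside it. The samples share the difference between control and CCl4, so the values are a description. Edn1 was followed by St6galnac2 (0.955 and 0.954), Dennd2d (0.953 and 0.958) and Anks6 (0.948 and 0.908). Agtr1a was followed by Cpeb2 (0.970 and 0.918), Rdh10 (0.962 and 0.880) and Lypla1 (0.954 and 0.879).

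Among the members with no DEG call, Agt was followed by Htra1 (0.966 and 0.975), Ace by Uck2 (0.928 and 0.957) and Ednrb by Noc3l (0.908 and 0.952). Ednra, which was DEG in cirrhosis, was followed by RGD1566006 (0.895), where r was 0.699 within the CCl4-treated samples. Nos3 had the loosest companions, Hspb8 (0.777 and 0.774) and Lyve1 (0.759 and 0.873), the latter a marker of sinusoidal and lymphatic endothelium.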

How the data were processed

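Poly(A) RNA of rat liver was sequenced with paired reads of 150 bp. The authors mapped the reads to rn6 with HISAT2 2.1.0 and counted them per gene with featureCounts, which added a multi-mapping read at every place it fits. Use of strand is not given in the sources used here. The deposited table holds raw counts per gene. Total counts ranged from 16157491 to 21574767 per sample. Groups follow the sample labels, and replicates are different rats.

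Counts were filtered with filterByExpr (smallest count 10) and scaled by TMM (factors 0.847 to 1.40). In R 4.3.3, a single 3-group model was fitted in edgeR 4.0.16 (quasi-likelihood test) and in DESeq2 1.42.0 (Wald test), with Benjamini-Hochberg adjustment over all genes. DEG were protein coding genes with FDR below 0.05 in both. The SE is the log2FC over the root of F. DESeq2 gave no p for 15 genes, which were not called. The steps were tested on simulated data.

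The 8 genes and all lists were chosen with earlier results of these data known. Named are the 8 genes, per list and comparison up to 6 DEG with the largest absolute log2FC and a mean of at least 1 FPM in a group, untested genes of the 3 systems by count, and 3 genes most like each member. Thop1, Ece1, Rock1, Rock2, Rhoa and the markers named singly were added after their values were seen. Upstream sequence came from RefSeq (GRCr8). Some genes that the rule includes are not reported here. Alternatives changed the tool, scaling, filter and samples. No protein sequences were used here.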

Additional observations from a re-analysis of the deposited data

Results flagged for a closer look

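Groups of 4 or 5 samples were checked for a sample far from the others, for the 7 tested genes in each of the 3 groups. Of these 21 groups, 1 held such a sample, and chance gives about 1 in 20. Agt in cirrhosis & eplerenone replicate 3 was at 478 FPM, where the other 4 livers of the group had 1350 to 1440 FPM. In the same liver the hepatocyte markers summed to 106000 FPM, the lowest in its group, where the others had up to 196000 FPM. It also had the largest TMM factor of all samples (1.405), which lowers its FPM. As a share of total counts, its albumin (8.78%) was above that of cirrhosis & eplerenone replicate 1 (7.15%). The part of hepatocyte content or scaling in the Agt value was not tested. This liver is one of the 2 samples that stand apart on the first principal component. Without it, the log2FC of Agt in cirrhosis & eplerenone against control was 0.12, beside -0.09 with all samples, and passed no test in either case.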

How the results depend on the processing

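The call of Edn1 in cirrhosis was made under all 8 other ways of processing in which it was tested, that of Agtr1a under all 9, and that of Ednra under 8 of 9, the exception being the replicate number as a block (adjusted p = 0.0602 by edgeR). Same-numbered rats are different animals, and the correlation of their deviations ran from -0.333 to 0.187, above 0.1 in 3 of 13 pairs, so the numbers do not pair them. With this block 0 of the 8 genes were called in cirrhosis & eplerenone against control (Agtr1a -1.09, adjusted p = 0.0701 by edgeR), and 2 genes of the 3 systems. DESeq2 alone called 3 and 11 there, where it called 1476 of 13628 protein coding genes. In the same comparison a fit of only the groups compared called 2 members, and a minimum of 10 counts in every sample 4 system genes. With 4 samples per group, 1 member and 5 system genes were called between the CCl4-treated groups. With each sample left out in turn, members called ranged from 2 to 3 (cirrhosis), 0 to 2 (cirrhosis & eplerenone) and 0 to 0 (between CCl4-treated groups), and system genes from 8 to 16, 1 to 9 and 0 to 1. Over all genes the calls ranged from 1317 to 4634, from 208 to 1476 and from 0 to 1235 over all fits, beside 2802, 726 and 2.

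Signs turned in values that passed no test. With total counts, Agt was 0.039 in cirrhosis (0.17 in cirrhosis & eplerenone) and Nos3 was 0.050 in cirrhosis. This scaling moved the median of all genes by 0.289 in cirrhosis and 0.317 in cirrhosis & eplerenone. With 4 samples per group, Agt was 0.12 in cirrhosis & eplerenone against control, and Ace -0.12 against cirrhosis. With the block, Ednrb was -0.16 in cirrhosis and Nos3 -0.066 in cirrhosis & eplerenone. With the label prefix as covariate, Ednra was 0.025 between the CCl4-treated groups. With samples left out, Agt ranged from -0.15 to 0.12 (cirrhosis & eplerenone against control) and -0.019 to 0.32 (against cirrhosis), Ednra from -0.30 to 0.21 (against cirrhosis), Ednrb from -0.53 to 0.47 (cirrhosis), and Nos3 from -0.45 to 0.016 (cirrhosis) and -0.038 to 0.33 (cirrhosis & eplerenone against control). The causes were not tested. Low counts limit Ace and Mas1, and they limit the size of the Edn1 difference from control, where Edn1 had 2 to 13 counts.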
